A study of Homo sapiens with 2 samples.

Results

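H/ACA box small nucleolar RNAs were examined on 2 Affymetrix arrays of SW480, an established cell line from a human colorectal adenocarcinoma. The members are the probe sets whose only symbol in the platform annotation is SNORA followed by a number. There were 64 of them, standing for 61 genes, among 19460 probe sets with 1 symbol and 33297 in all. Another 26 probe sets list a SNORA together with a further gene and were not taken as members. The group labelled TFAP2E CDS overexpression held cells with a stable pTarget expression vector that carries the TFAP2E coding sequence (CDS), TFAP2E being an AP-2 family transcription factor. The control group held cells with the empty vector. Both had been kept under Geneticin for weeks and grown from picked single clones, and each group is 1 array of total RNA. Whether an array holds 1 clone or several is not given in the labels, so that a difference between clones and one due to TFAP2E cannot be told apart.

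H/ACA RNAs are short noncoding RNAs that fold into a pair of hairpins joined by a hinge, the H box, and end in an ACA motif. Each binds the proteins dyskerin, NHP2, NOP10 and GAR1, and a pocket in a hairpin pairs with a target RNA so that dyskerin can turn a chosen uridine into pseudouridine. Most targets lie in ribosomal RNA. In human cells nearly all of these RNAs are cut out of introns of host genes, many of which encode ribosomal proteins or translation factors, while others are noncoding RNAs named SNHG, for small nucleolar RNA host gene. In the RefSeq gene table (assembly GRCh38.p14) the 61 genes had lengths from 123 to 236 bases with a median of 134 over the probe sets. Silica columns of the kind used here retain RNA of this size poorly, and a probe inside the snoRNA also matches the unspliced host transcript, so that mature snoRNA and host intron cannot be told apart in these values.

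All values are log2 RMA values, and each difference is the TFAP2E-labelled value less the empty vector value. RMA is a procedure that corrects background, brings arrays to a common distribution and gives 1 value for the probes of a probe set. A single array in each group allows no test, no p-value and no error, and the spread over the 19460 probe sets serves as the background. The median of those differences was 0.03 with a standard deviation of 0.219, and the central 95% ran from -0.40 to 0.45. The 2 arrays ran from 1.42 to 13.1 and from 1.34 to 13.3. A level of 5.55, the median of all values on both arrays, is used as a mark for dim probe sets and is not a detection limit. The TFAP2E probe set itself read 6.81 in the TFAP2E-labelled cells against 6.77 in the control, so that the values do not show the introduced gene, and all directions rest on the labels. All 9 intestinal epithelial markers reached 5.55 on at least 1 array, among them EPCAM at 11.1 and 11.2. Of these 9 the microvillus protein gene VIL1 read higher with the TFAP2E label (6.22 against 4.94, difference 1.28) and the E-cadherin gene CDH1 lower (6.38 against 7.08, difference -0.71), and their part in the snoRNA values was not tested. By contrast all 4 endothelial markers stayed below it on both. Of the 5 fibroblast markers 2 reached it, as did 2 of the 4 leukocyte markers on the array. The leukocyte marker CD68 read 6.60 on the TFAP2E-labelled array against 6.02, CD14 read 5.46 against 5.66, and the pan-leukocyte marker PTPRC read 2.74 on both.

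The promoters of 5 host genes are shown. The first 4 hold a snoRNA past 1.5-fold, and the other, RPL27A, was added after its values were seen because both of its snoRNAs read lower. CNOT1, the host of SNORA50A, also holds one past 1.5-fold on the low side, but it had no promoter window to show. SNORA22 had no settled host. SNHG17 holds the 3 SNORA71 copies, SNHG8 holds SNORA24 and RPSA holds SNORA62 and SNORA6, all of which read higher on the TFAP2E-labelled array. USP34 holds SNORA70B, which read lower. RPL27A holds SNORA3A and SNORA3B. Each window runs from 250 bases before to 50 bases after the annotated start, from RefSeq on GRCh38.p14, in the order chr20:38435279-38435578, minus strand, chr4:118278512-118278811, plus strand, chr3:39406470-39406769, plus strand, chr2:61471038-61471337, minus strand and chr11:8682542-8682841, plus strand. Capitals mark a match to GCCNNNGGC, a binding motif of AP-2 factors, and a run of C or T letters, at least 5 long, read to its end from a C within 10 bases of the start.
SNHG17: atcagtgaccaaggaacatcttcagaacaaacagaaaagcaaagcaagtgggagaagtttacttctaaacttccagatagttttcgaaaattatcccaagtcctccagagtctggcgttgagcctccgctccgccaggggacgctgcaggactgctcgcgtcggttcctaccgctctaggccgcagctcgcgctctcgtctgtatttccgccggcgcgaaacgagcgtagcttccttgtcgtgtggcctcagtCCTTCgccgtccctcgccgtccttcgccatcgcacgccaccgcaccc
SNHG8: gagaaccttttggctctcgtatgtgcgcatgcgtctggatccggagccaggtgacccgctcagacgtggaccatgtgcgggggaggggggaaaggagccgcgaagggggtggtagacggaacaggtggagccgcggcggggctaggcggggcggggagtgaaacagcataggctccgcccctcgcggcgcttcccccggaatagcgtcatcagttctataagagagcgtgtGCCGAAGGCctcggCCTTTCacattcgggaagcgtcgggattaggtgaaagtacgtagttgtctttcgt
RPSA: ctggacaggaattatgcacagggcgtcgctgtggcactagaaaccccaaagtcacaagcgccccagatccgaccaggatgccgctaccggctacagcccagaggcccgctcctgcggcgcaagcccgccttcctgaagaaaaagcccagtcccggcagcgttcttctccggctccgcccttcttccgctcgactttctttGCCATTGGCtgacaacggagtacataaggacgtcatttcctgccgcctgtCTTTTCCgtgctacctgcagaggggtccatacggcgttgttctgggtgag
USP34: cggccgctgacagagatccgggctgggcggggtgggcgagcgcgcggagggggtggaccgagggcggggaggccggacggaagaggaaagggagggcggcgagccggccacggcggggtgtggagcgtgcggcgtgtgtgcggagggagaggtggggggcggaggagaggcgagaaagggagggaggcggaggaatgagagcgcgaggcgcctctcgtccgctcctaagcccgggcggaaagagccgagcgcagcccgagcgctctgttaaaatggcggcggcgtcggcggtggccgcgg
RPL27A: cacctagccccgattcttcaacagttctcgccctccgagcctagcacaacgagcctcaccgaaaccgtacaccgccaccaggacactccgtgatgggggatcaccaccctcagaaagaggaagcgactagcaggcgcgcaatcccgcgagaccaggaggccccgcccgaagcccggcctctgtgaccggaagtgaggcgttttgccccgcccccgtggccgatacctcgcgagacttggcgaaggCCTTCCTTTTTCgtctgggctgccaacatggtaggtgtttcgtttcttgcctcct

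USP34 has no such pyrimidine run near the start, and the other 4 windows have one, the letters by which 5′ terminal oligopyrimidine transcripts of the translation machinery are known. The same letters were found in 27 of 54 windows of the 40 host genes in the promoter table, or 50%, in all 7 windows of ribosomal protein hosts, and in 33.5% of all 35116 windows. The AP-2 motif, which reads the same on both strands, was found once each in SNHG8 and RPSA and not in SNHG17, USP34 or RPL27A. It was present in 15 of the 54 host windows, 27.8%, against 23.2% of all windows. A match describes letters in the window and not a bound site.

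Of the 64 probe sets 33 read higher on the TFAP2E-labelled array, 30 read lower and SNORA33 had the same value, 4.88, on both. The median difference was 0.04, against 0.03 for all probe sets, of which 54.2% were above 0. The 26 probe sets that list a SNORA with a further gene had 19 higher and a median of 0.20. The spread among the members was wider than the background, with a standard deviation of 0.319 against 0.219, and a range from -0.88 to 1.05. At a size of 1.5-fold (0.58 on the log2 scale) 6 members stood out, 9.38% of them, against 1.52% of all probe sets. Of these 4 were higher, against 0.807% of all probe sets, and 2 lower, against 0.714%. The split was 5 and 1 after median centring, 4 and 1 after quantile normalization and 4 and 2 with the loess trend removed, with SNORA20 coming in and SNORA24 or SNORA50A going out. At 2-fold there was 1, SNORA22, on the high side, where 0.0617% of all probe sets passed and 0.134% in either direction. C/D box snoRNAs, the methylation guides, had 2 of 115 probe sets past 1.5-fold with a standard deviation of 0.267 and a median of 0.02. Among the 19 probe sets of Cajal body RNAs 2 passed, or 10.5%, a share near that of the SNORA members. Their standard deviation was 0.283 and their median 0.11.

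**Figure D1:**
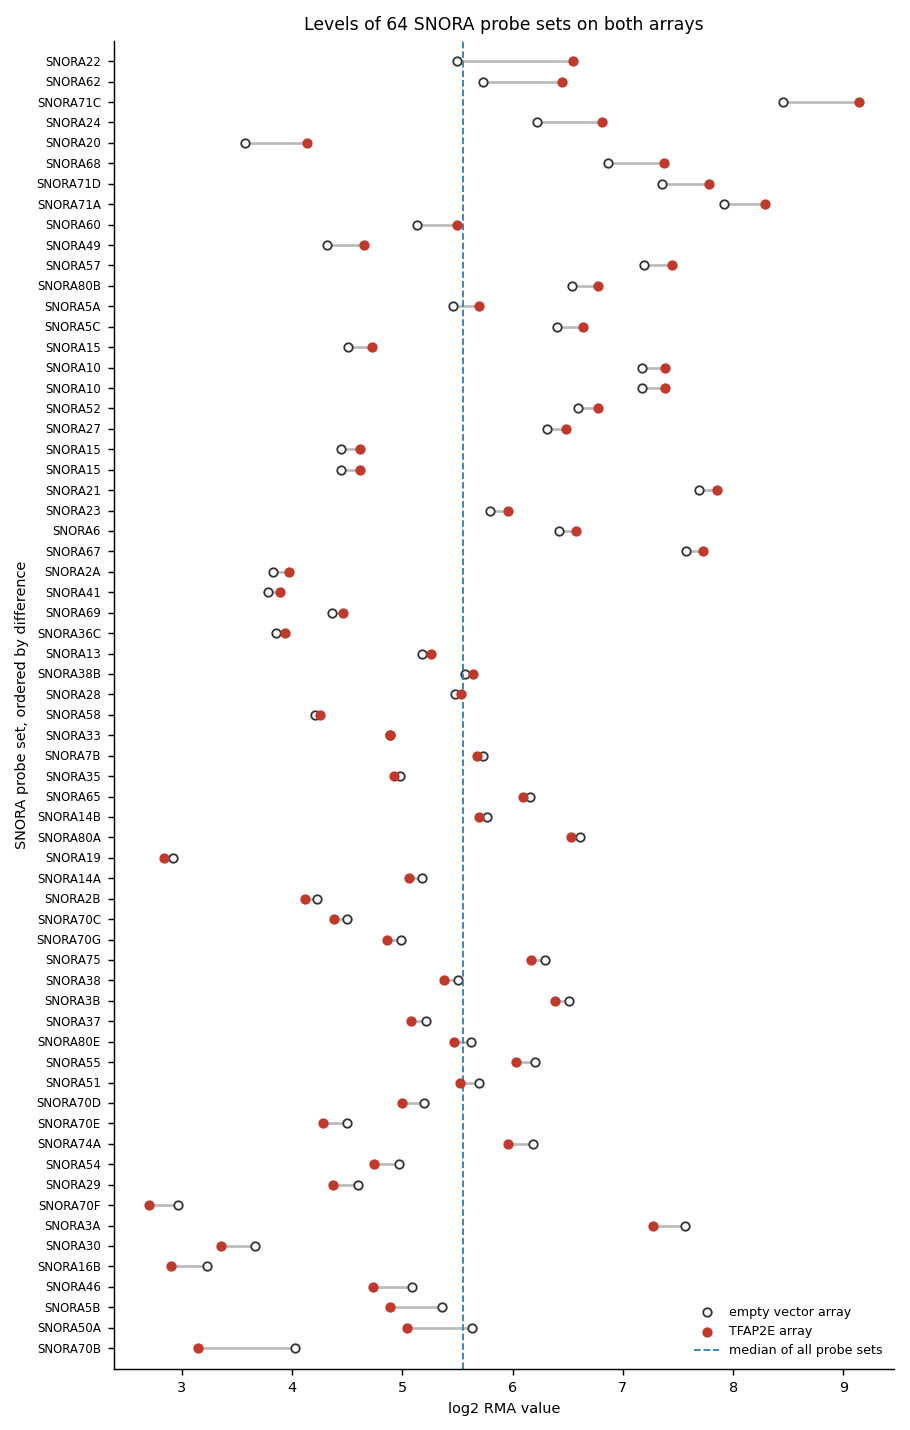
Log2 RMA values (horizontal axis) of the 64 SNORA probe sets on the TFAP2E-labelled array (filled points) and the empty vector array (open points), 1 array each and no error bars, ordered by their difference, with the median of all probe sets, 5.55, as a dashed line. SNORA22 at the top differs by 1.05 and SNORA70B at the bottom by -0.88, and 32 probe sets lie below the dashed line on both arrays.

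SNORA22, which guides pseudouridylation of large subunit rRNA, had the largest difference. It read 6.54 with the TFAP2E label against 5.50 in the control, a difference of 1.05 or 2.07-fold. The lower value lay just under 5.55, and counted from that mark the difference was 1.99-fold. In the RefSeq table SNORA22 lies inside both LINC03006 and the pseudogene CCT6P1, so that its host was not settled. It sits on chromosome 7, where the nearest 10 measured genes on each side of it had a median difference of 0.23 and 18 of those 20 were higher. Over chromosome 7 the median of 527 measured genes was 0.18, against 0.04 on all chromosomes. The part of the region in its value was not tested. The 8 SNORA probe sets of chromosome 7 had a median of 0.19, and the other 56 a median of -0.03.

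The SNORA71 copies, guides for small subunit rRNA in introns of the noncoding host SNHG17, read higher together. SNORA71C stood at 9.14 against 8.46, a difference of 0.68 or 1.61-fold. SNORA71D read 7.79 against 7.36 (difference 0.43), and SNORA71A 8.29 against 7.91 (difference 0.37). All 3 copies were well above the dim mark on both arrays, and as related copies they may share probes. The SNHG17 probe set with the higher mean read 8.70 against 8.43, a difference of 0.27, while the other SNHG17 probe set read 7.31 against 7.32. The 20 measured neighbours of SNORA71C, among which SNHG17 can be counted, had a median of 0.04, and 12 of them were higher.

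SNORA62, a guide for large subunit rRNA, and SNORA6 lie in introns of RPSA, which encodes a protein of the small ribosomal subunit. SNORA62 read 6.45 against 5.73, a difference of 0.72 or 1.64-fold. SNORA6 read 6.58 against 6.42, a difference of 0.16. Both snoRNAs of this host were higher, but by unequal amounts. RPSA has no probe set with 1 symbol, and its own difference is not given here. SNORA24, a guide for small subunit rRNA inside the noncoding host SNHG8, read 6.81 against 6.23, which is 0.59 or 1.504-fold and just past the 1.5-fold mark. It fell short of that mark after quantile normalization (0.57) and with the loess trend removed (0.57). SNHG8 likewise had no probe set of its own.

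Further members on the high side stopped short of 1.5-fold in the deposited values. SNORA20, a guide for small subunit rRNA, read 4.14 against 3.57 (difference 0.57) and was dim on both arrays. Its difference passed 1.5-fold under each of the 3 other scalings, at 0.59 after median centring, 0.61 after quantile normalization and 0.59 with the loess trend removed. SNORA68, which guides modification of large subunit rRNA, read 7.37 against 6.87 (difference 0.50). SNORA60, in the noncoding host SNHG11, read 5.50 against 5.13 (difference 0.36). Of these 3, SNORA20 and SNORA60 lay under the dim mark on both arrays. SNORA49 in EP400 differed by 0.33, again at dim levels of 4.65 and 4.32. SNORA57 differed by 0.26, at 7.45 against 7.19. SNORA80B, inside ODC1, the gene of the polyamine enzyme ornithine decarboxylase, differed by 0.24, at 6.78 against 6.53.

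SNORA70B had the lowest difference. It read 3.15 with the TFAP2E label against 4.03 in the control, a difference of -0.88 or 1.84-fold lower, and both values were dim. The 6 measured copies of SNORA70, whose founding member guides small subunit rRNA and whose copies are spread over introns of unrelated genes, all read lower. SNORA70F differed by -0.27 (2.70 against 2.97), SNORA70E by -0.21 (4.283 against 4.498) and SNORA70D by -0.20 (4.997 against 5.193). SNORA70G and SNORA70C differed by -0.12 each. None of these 6 reached 5.55 on either array, their median was -0.20, and near-identical copies can share probes, so that they are not 6 separate measurements. Under median centring, quantile normalization and removal of the loess trend all 6 stayed below 0.

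Both snoRNAs of CNOT1, the scaffold of the CCR4-NOT deadenylase, read lower. SNORA50A, a guide for small subunit rRNA, read 5.04 against 5.63, which is -0.59 or 1.504-fold lower. Its lower value was dim, and counted from 5.55 the difference was 1.06-fold. After median centring and after quantile normalization it was -0.56, short of 1.5-fold. SNORA46 read 4.74 against 5.09 (difference -0.35), dim on both arrays. CNOT1 itself stood at 9.78 against 9.80, a difference of -0.02, and both snoRNAs lay below that.

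Other low members were mostly dim. SNORA5B read 4.89 against 5.36 (difference -0.47), SNORA16B 2.91 against 3.23 (difference -0.32) and SNORA30 3.36 against 3.67 (difference -0.30). SNORA54 and SNORA29 differed by -0.23 each and were dim as well. SNORA74A, also known as U19, was above the mark at 5.96 against 6.18 (difference -0.23). Among members at or above 5.55 on both arrays the lowest was SNORA3A, at 7.28 against 7.57 (difference -0.29).

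**Figure D2:**
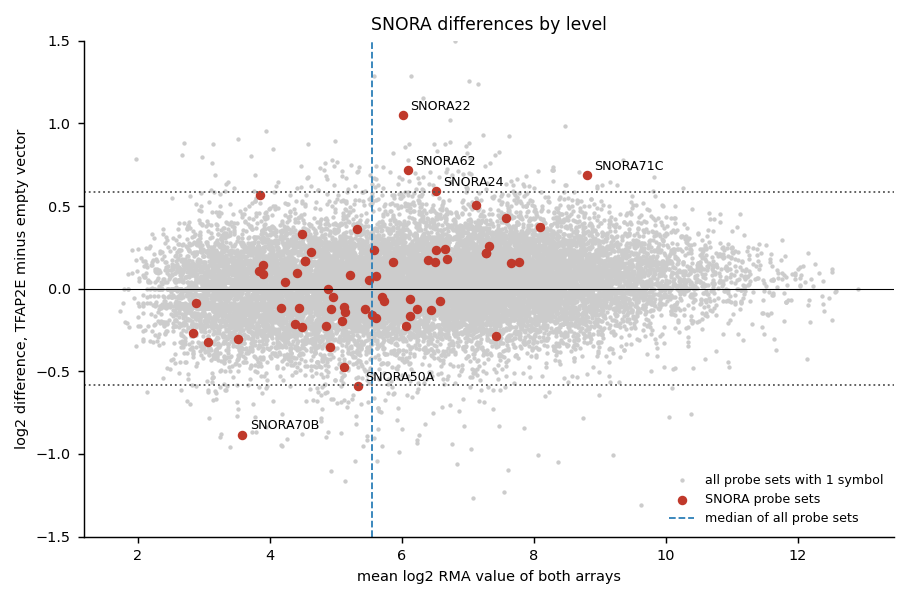
Log2 difference, TFAP2E minus empty vector (vertical axis), against the mean log2 RMA value of both arrays for all 19460 probe sets with 1 symbol (grey) and the 64 SNORA probe sets (red), with dotted lines at 1.5-fold and a dashed line at 5.55; 6 grey points beyond 1.5 on the log2 scale lie at or outside the frame. SNORA probe sets with a mean of 6.5 or more lie mostly above 0, and those below 5.55 lie on both sides of it.

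The direction of the members went with the level of the probe set. Of the 15 with a mean of at least 6.5, 13 read higher and 2 lower, with a median of 0.24. All probe sets with 1 symbol at that level had a median of 0.05, and 61.3% of them were above 0. Of the 15 SNORA between 5.55 and 6.5, 7 were higher and 8 lower (median -0.05), of the 18 between 4.5 and 5.55 6 were higher and 11 lower (median -0.12), and of the 16 under 4.5 7 were higher and 9 lower (median -0.10). All probe sets in those 3 ranges had medians of 0.02, 0.01 and 0. The members are not all separate measurements. Those of at least 6.5 count SNORA10 more than once with identical values and hold the 3 SNORA71 copies, all higher. Those under 5.55 hold the 6 SNORA70 copies, all lower, and the 3 probe sets of SNORA15, all higher. C/D box probe sets of 6.5 or more also leaned high, with 25 of 36 above 0 and a median of 0.18. Across the 64 members the Spearman correlation of mean level and difference was 0.43, and across all 19460 probe sets it was 0.14, as a description, since the points share both arrays and the mean holds the values of the difference. Counted by the dim mark, 27 members lay at or above 5.55 on both arrays, 5 on 1 array and 32 on neither.

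The kind of host split the members in a similar way. The 6 members inside SNHG noncoding genes had a median of 0.40, with SNORA74A alone on the low side. The 13 probe sets inside ribosomal protein genes had a median of 0.16, with 9 higher, 3 lower and SNORA33 equal. The 40 inside other protein-coding genes had a median of -0.10, with 16 higher and 24 lower. These counts are not all of separate measurements. The host is that of the gene symbol, also for the further probe sets of SNORA10 and SNORA15, which may lie elsewhere. The 40 hold the 6 SNORA70 copies, all lower, and the 3 probe sets of SNORA15, all higher. The SNHG members hold the 3 SNORA71 copies, all higher, and the 13 count SNORA10 more than once with identical values. The median level of the 3 kinds was 7.05, 6.497 and 4.92, so that host kind and probe set level moved together and their parts were not tested. Besides SNORA62 and SNORA6, members inside ribosomal protein genes included SNORA10 (0.22), SNORA52 (0.18), SNORA27 (0.18), SNORA21 (0.16) and SNORA69 (0.10) on the high side, and SNORA65 (-0.06), SNORA3B (-0.13) and SNORA3A on the low side.

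Within 1 host the snoRNAs did not always run together. TBRG4 on chromosome 7 holds 3 SNORA5 copies, which guide small subunit rRNA. SNORA5A read 5.70 against 5.46 and SNORA5C 6.64 against 6.40, a difference of 0.24 each, while SNORA5B differed by -0.47. TBRG4 itself read 8.31 against 7.94, a difference of 0.38. The 20 measured genes nearest these snoRNAs, among which TBRG4 can be counted, had a median of 0.22. TCP1, which encodes a chaperonin subunit, differed by 0.10, while of its 2 snoRNAs SNORA20 differed by 0.57 and SNORA29 by -0.23. In KANSL2, SNORA2A differed by 0.15 and SNORA2B by -0.11, both of them dim on both arrays. RPL27A holds SNORA3A and SNORA3B at -0.29 and -0.13. Its own 3 probe sets disagreed, with the highest reading 11.05 against 10.80 (difference 0.25), another differing by 0.06 and the dimmest by -0.30 (7.55 against 7.85). The choice of probe set therefore sets the sign of the host's difference there.

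The next members lie in hosts tied to translation, ribosome assembly or nuclear import, and were picked after their values were seen. SNORA67, a guide for small subunit rRNA inside the RNA helicase gene EIF4A1, read 7.73 against 7.57 (difference 0.16). SNORA23 in the nuclear import factor gene IPO7 differed by 0.16, with 0.115 for the host. SNORA41 in the elongation factor gene EEF1B2 differed by 0.11 and SNORA28 in the initiation factor gene EIF5 by 0.05, both dim. On the low side SNORA75 in the nucleolin gene NCL read 6.17 against 6.29 (difference -0.12), where NCL itself differed by 0.17. SNORA51, inside the C/D box protein gene NOP56, read 5.52 against 5.70 (difference -0.18), and SNORA80A, inside the ribosome assembly gene URB1, differed by -0.08. SNORA19 in the initiation factor gene EIF3A was dim at 2.84 against 2.92. SNORA38B, in NOL11, the gene of a nucleolar protein of ribosome assembly, differed by 0.07.

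**Figure D3:**
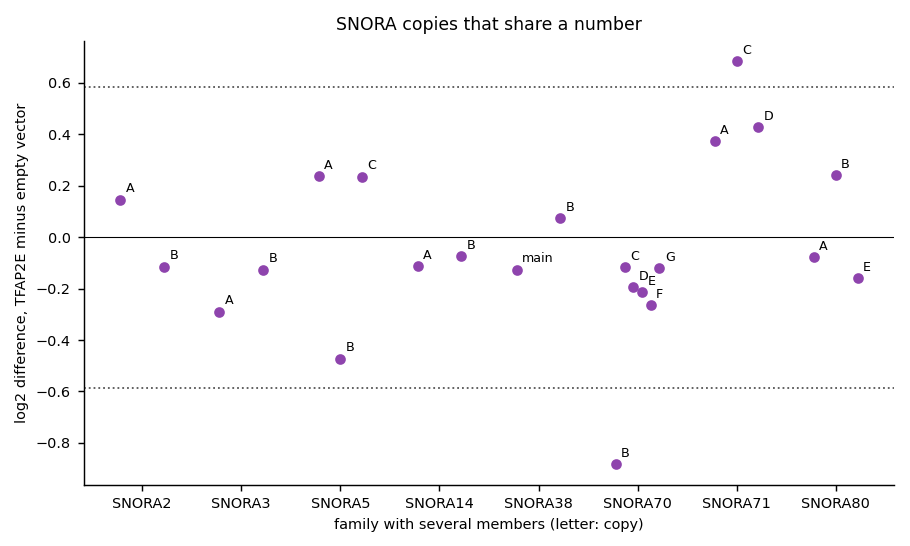
Log2 difference, TFAP2E minus empty vector (vertical axis), of the SNORA families with several measured members, each point 1 probe set marked by its copy letter (main: SNORA38), with dotted lines at 1.5-fold. The 3 SNORA71 copies lie between 0.37 and 0.68, the 6 SNORA70 copies between -0.88 and -0.12, and the SNORA5 copies on both sides of 0.

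Probe sets of the same gene were in part identical. SNORA10, a guide for both rRNA subunits, has its RefSeq gene inside RPS2, and its 2 probe sets had identical values of 7.39 and 7.17. SNORA15 has its RefSeq gene inside the chaperonin gene CCT6A. Of its 3 probe sets 2 were identical at 4.61 and 4.45 and the other read 4.73 and 4.51. Hosts were given by gene symbol, so every probe set of SNORA10 or SNORA15 carries the host of that gene. Whether each of them lies at that host was not tested. Counting identical values once left 62 probe sets with a median of 0.02.

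A host could be named for 60 of the 64 probe sets, in 48 distinct genes, from the RefSeq gene whose span holds the snoRNA. It was given by symbol, so the further probe sets of SNORA10 and SNORA15 take it too, wherever they lie. For 49 probe sets the host had a probe set of its own, which gave 38 host genes. Where several carried the host symbol, the one with the highest mean was used. Whether that one stands for the host or for a copy elsewhere was not tested. None of the 38 hosts differed by 1.5-fold, where 1.5% of all 18417 genes did, and the largest size was 0.38, for TBRG4. Of the hosts 26, or 68.4%, were higher and 11 lower with a median of 0.08. Of all 11294 measured genes 59.2% were above 0, with a median of 0.04. The host differences had a standard deviation of 0.164, against 0.285 for the 49 snoRNA probe sets. With the loess trend removed or after quantile normalization 24 hosts were higher, and after median centring 30. In 20 cases snoRNA and host were both higher, in 11 both lower, in 16 the snoRNA was lower and the host higher, and SNORA36C alone was higher with a lower host, AAK1, at -0.02. The dimmer probe set of AAK1 differed by 0.06, so this sign depended on the probe set. EP400, the host of SNORA49, had the same value of 7.21 on both arrays. Across the 49 pairs Pearson's r was 0.46 and Spearman's rho 0.47, as a description, because the pairs share both arrays and several share a host. The median of snoRNA minus host was -0.10, and 15 of the 49 were above 0.

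**Figure D4:**
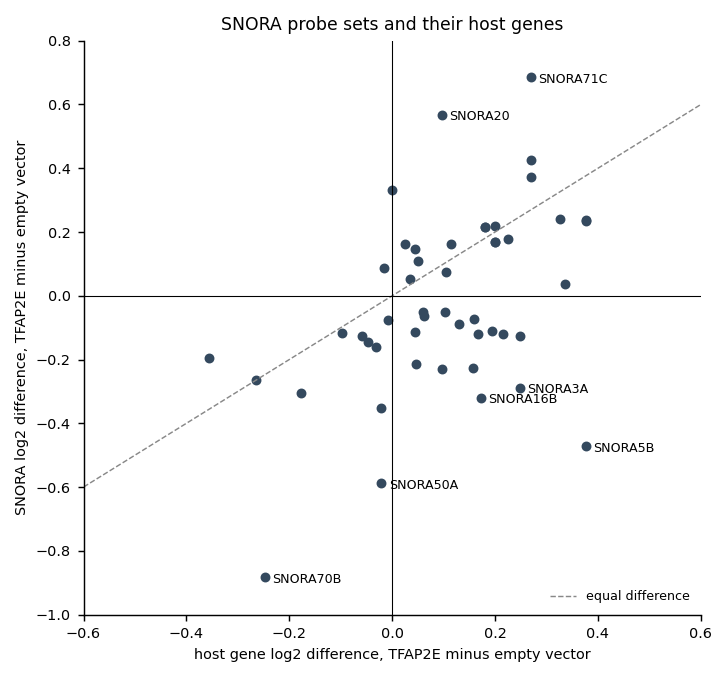
Log2 difference of each SNORA probe set (vertical axis) against that of its host gene (horizontal axis), both TFAP2E minus empty vector, for the 49 SNORA probe sets whose host has a probe set of its own; the dashed line marks equal differences and names are given where the 2 differ by more than 0.4. Hosts lie between -0.36 and 0.38, and the snoRNAs between -0.88 and 0.68.

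The widest distance between a snoRNA and its host was that of SNORA5B and TBRG4, with the snoRNA at -0.85 relative to the host. USP34, a deubiquitinase, differed by -0.25 and its SNORA70B lay further down (-0.64 relative to the host). Relative to their hosts SNORA50A stood at -0.57 (CNOT1), SNORA3A at -0.54 (RPL27A, by its highest probe set) and SNORA16B at -0.49 (PPP2R5A). On the high side SNORA71C lay 0.42 above SNHG17 and SNORA20 0.47 above TCP1. The hosts that follow lay nearer to their snoRNAs. MRPL3, a mitochondrial ribosomal protein gene, differed by 0.34 and its SNORA58 by 0.04, and ODC1 differed by 0.33. PHLPP2, a phosphatase that holds SNORA70D, had the lowest host difference at -0.36. HTR2C, the serotonin receptor gene that holds the brain-enriched SNORA35, was dim on both arrays at 4.23 and 4.17, and SNORA35 read 4.93 and 4.98.

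The genes of H/ACA core proteins and of snoRNA assembly factors read slightly higher as lists, with none past 1.5-fold. For the counts of higher genes that follow, the background is that 59.2% of the 11294 measured genes were above 0, with a median of 0.04. All 4 core proteins were higher, with a median of 0.23. The catalytic subunit gene DKC1 read 10.14 against 9.94 (difference 0.20), NHP2 8.37 against 8.12 (difference 0.25), GAR1 8.18 against 8.06 (difference 0.11) and NOP10 8.54 against 8.07 (difference 0.47). Of 10 snoRNA assembly factors, not all of them particular to H/ACA particles, all were higher, with a median of 0.26. They ran from ZNHIT6 (0.03) and RPAP3 (0.07) to NOPCHAP1 (0.41) and NAF1 (0.40). NAF1 holds the H/ACA particle before GAR1 joins. After removal of the loess trend, and after quantile normalization, 9 of the 10 were higher. TERC, the telomerase RNA, ends in an H/ACA domain and read 7.11 against 6.73 (difference 0.38). The 8 measured telomerase and telomere genes, TERC included, had a median of 0.10, from WRAP53 (-0.12), the protein that carries telomerase to Cajal bodies, and TERT (-0.07) to TERC and POT1 (0.47).

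Enzymes that make pseudouridine without a guide RNA were also on the high side. All 12 were above 0 with a median of 0.22, from RPUSD2 (0.02) and PUSL1 (0.07) to TRUB1 (0.40) and RPUSD3 (0.38), and they stayed above 0 under each of the 3 other scalings. Of 18 genes for intron debranching, the RNA exosome and end trimming, 16 were higher with a median of 0.17. The debranching enzyme gene DBR1 was among them at 0.26. The oligoadenylating enzyme gene TENT4B (0.48) and EXOSC4 (0.30) were highest and EXOSC6 (-0.15) and EXOSC10 (-0.02) lowest. With the loess trend removed 14 of the 18 were higher. The 10 Cajal body and nucleolus genes had a median of 0.12, from POLR1D (-0.11) and POLR1A (-0.08) to POLR1C (0.26) and POLR1B (0.24), and the 3 measured C/D core protein genes, NOP58, FBL and RRP9, differed by 0.05, 0.12 and 0.33. Of the 7 measured genes of nonsense-mediated decay, which degrades many spliced SNHG transcripts, 3 were higher and 4 lower with a median of -0.01. That median became 0.02 after median centring, -0.055 after quantile normalization and -0.057 with the loess trend removed. SMG5 (-0.10) and UPF1 (-0.10) were lowest of these 7, and SMG8 (0.13) and UPF2 (0.10) highest. No gene of these 8 lists passed 1.5-fold, where 1.5% of all 18417 genes did.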

How the data were processed

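Gene expression in SW480 cells was measured on 1 Affymetrix array for each of the 2 groups. The deposited unit is a log2 value for each probe set, which the authors computed by RMA (per the submitters' processing notes). The sources used here name neither its version nor the genome build. The precision is limited by the number of arrays. Of 33297 probe sets, 19460 had 1 gene symbol in the platform annotation, 1754 had several and 12083 had none. Symbols were updated through the RefSeq gene table (GRCh38.p14), which held 19429 of the 19460 and all 64 members. The members, gene lists and thresholds were chosen with earlier results of these data known.

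Differences were computed in Python 3.11.15 with pandas 2.3.3 from the deposited values, without further scaling. All members were counted with no filter on low values, and 1.5-fold and 2-fold served as rules of size. A measured gene in counts of neighbours and chromosomes has a mean of at least 5.55. For genes outside the members, the probe set with the highest mean was used. The RefSeq table gives no strand for the snoRNAs, so a host is the only named gene whose span holds the snoRNA, or, among several, one in a hand-written list of well known hosts. Named genes are the 12 highest and 12 lowest members, members past 1.5-fold, with several probe sets, with the highest levels or with a shared host, their hosts, and the highest and lowest 2 of each list. Other members appear as part of a host class or family or were picked after their values were seen. Alternatives were 3 scalings, 3 filters, a floor, 2 ways to join probe sets, updated symbols and a stricter host list.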

Additional observations from a re-analysis of the deposited data

How the results depend on the processing

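The median difference of the SNORA probe sets, 0.04, was 0.16 where the higher value had to reach 5.55, 0.17 where the mean had to, and 0.16 where both values had to, since these filters keep 32, 30 and 27 members. It was 0 with 1 probe set per gene or with the average over the probe sets of a gene. The count of 6 past 1.5-fold became 3 and that of 1 past 2-fold became 0 where both values had to reach 5.55, because SNORA22, SNORA50A and SNORA70B then left. The host median of 0.08 was 0.14 with the filter on the higher value, 0.16 with those on the mean and on both values, and 0.14 with the hand-written host list alone, which has 14 hosts with values. The median of snoRNA minus host, -0.10, was -0.050 with quantile normalization and -0.057 where both values had to reach 5.55. The cause of the shifts in the host median and with quantile normalization was not tested. The other alternatives moved these medians by no more than the standard deviation of the values behind each median divided by the square root of their number, and the counts by no more than 1.5 times. Counting identical probe sets once and leaving out the SNORA70 copies (median 0.08) were added after the data were seen. No member changed sign under median centring, quantile normalization or removal of the loess trend, where the largest move was 0.06. After quantile normalization and with a floor at the 20th percentile 5 members passed 1.5-fold. No replicate could be left out. No paired analysis was possible because only 1 array stands for either group.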
